A study of Homo sapiens with 6 samples.

Results

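The 47 genes described here encode cadherins, protocadherins, the Fat, Dachsous and CELSR cadherins, and catenins. They were taken as a list of gene names, and their values come from every probe set whose annotation names 1 of them, alone or with other genes. In all, 45 of the 47 genes had such a probe set, and together they had 104 of the 54613 probe sets on the arrays that are no controls. CDH4 and CDH13 were not analysed here. Of the 104 probe sets, 9 also name another gene, and CTNND1 and PCDH20 are read by shared probe sets alone. The other 43 genes have at least 1 probe set of their own.

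RNA came from the human breast cancer cell line MDA-MB-436 and hybridised to 6 Affymetrix arrays. Of these, 3 are labelled wild type and 3 are labelled NF1-C2S transfected. The second group carries a stably introduced expression plasmid for NF1-C2, which belongs to the nuclear factor I-C transcription factors, and its condition is written as overexpressing NF-C2. Both groups grew in the same RPMI medium with serum and insulin. The sources used here do not give whether the transfected cells are 1 clone or a pool, and no group with an empty plasmid is named. No label ties the replicates to separate cultures, and the p-values therefore cover no more than the spread among these arrays, which may be technical. In bulk RNA, fewer cells with a transcript and less of it per cell cannot be told apart.

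Classical cadherins hold neighbouring cells together by binding the same cadherin on the other cell through calcium-dependent extracellular repeats. P120-catenin (CTNND1) binds their tails near the membrane and keeps cadherins at the surface. Alpha-catenin (CTNNA1) links the cadherin complex to actin. Epithelia rely on E-cadherin (CDH1), while mesenchymal cells carry N-cadherin (CDH2) or cadherin-11 (CDH11). Protocadherins bind more weakly and take part in cell recognition, and the Fat, Dachsous and CELSR proteins act in planar polarity and growth control. In breast tumours a change from E-cadherin to N-cadherin or cadherin-11 is a known mark of mesenchymal features.

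All values below are log2 expression values as the authors deposited them. A probe set was called higher or lower where limma's adjusted p over all 54613 probe sets was under 0.05, and changes are transfected minus wild type. A probe set is called dim where both group means lay under 4.82, the median of all values. Probe sets differ in sensitivity, so the words dim and brightest describe the signal of a probe set, and no order of transcript amounts between genes is read from them. The correlation between arrays was 0.992 to 0.997 within groups and 0.971 to 0.976 between them. NFIC, the gene of the factor in the plasmid, read -0.11, -0.51, 0.22 and -0.22 on its 4 probe sets, of which none passed (adjusted p = 0.568, 0.0536, 0.466 and 0.082, limma). The part of NFIC in the plasmid was not known here, so its level is no check of the labels, on which every direction depends. The labels call the cells epithelial: KRT18 and KRT7 read 12.55 and 7.98 in wild type cells, EPCAM read 5.71, and KRT19 and ESRP1 were dim. Of the 3 mesenchymal genes checked, fibronectin (FN1) fell by 2.77 and vimentin (VIM) by 0.53 (adjusted p = 5.84e-06 and 0.00132, limma), and SPARC was dim and did not pass. KRT18 and KRT7 fell by 0.93 and 0.98, and the summed level of the 7 epithelial markers was 45.6 to 46.8 in wild type and 43.6 to 44.8 in transfected arrays. Of the markers of blood cells, endothelium and 4 other tissues, 1 of 11 passed the test (CD14, higher by 0.83), and the summed level of the 4 measured blood cell markers was 19 to 19.9 in wild type and 20 to 20.7 in transfected arrays. PTPRC, CD3E, VWF, CLDN5, ALB, MLANA and SYT1 were dim, while CD14, HBB, PECAM1 and DES were not. What part these markers have in the results was not tested.

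The largest change on any probe set of the family was in cadherin-11, which rose on every one of its 4 probe sets, in arrays in which FN1 and VIM fell. Its rise was up to 17.8-fold, and 2.82-fold on its brightest probe set. P120-catenin rose on all 4 of its probe sets, by up to 2.03-fold. The protocadherin PCDH7 fell by 4.39-fold on its brightest probe set, and PCDHB5 by 2.22-fold. FAT1 rose and CELSR1 fell by less than 2-fold, and CDH24 rose on 1 of its 2 probe sets. E-cadherin, N-cadherin, P-cadherin and alpha-catenin did not pass the test on any probe set. Of the 104 probe sets 10 were higher, 5 lower and 89 did not pass.

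These counts lie under those of the arrays at large. Of all 54613 probe sets, 10.8% were called higher, 11.4% lower and 22.2% in either direction, against 14.4% of the members' probe sets. Many of the members' probe sets are dim (75 of 104). Among the 29 that were above the median in at least 1 group, 10 were called, or 34.5%, where the share over all such probe sets is 39.0%. Read by the brightest probe set that names only the gene, 2 of 43 genes were higher and 3 lower, or 11.6% in all. Of all 19775 genes, 13.6% were higher and 15.4% lower, or 29.0% in all. The median change over the 43 genes was 0.02, and over all genes it was 0.00. Changes of at least 2-fold past the threshold were seen on 6 of the 104 probe sets, a share near the 4.91% of all probe sets. These 6 probe sets belong to CDH11, CTNND1, PCDH7 and PCDHB5. The groups did not overlap on 28 of the 104 probe sets (26.9%), against 34.9% of all probe sets.

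**Figure D1:**
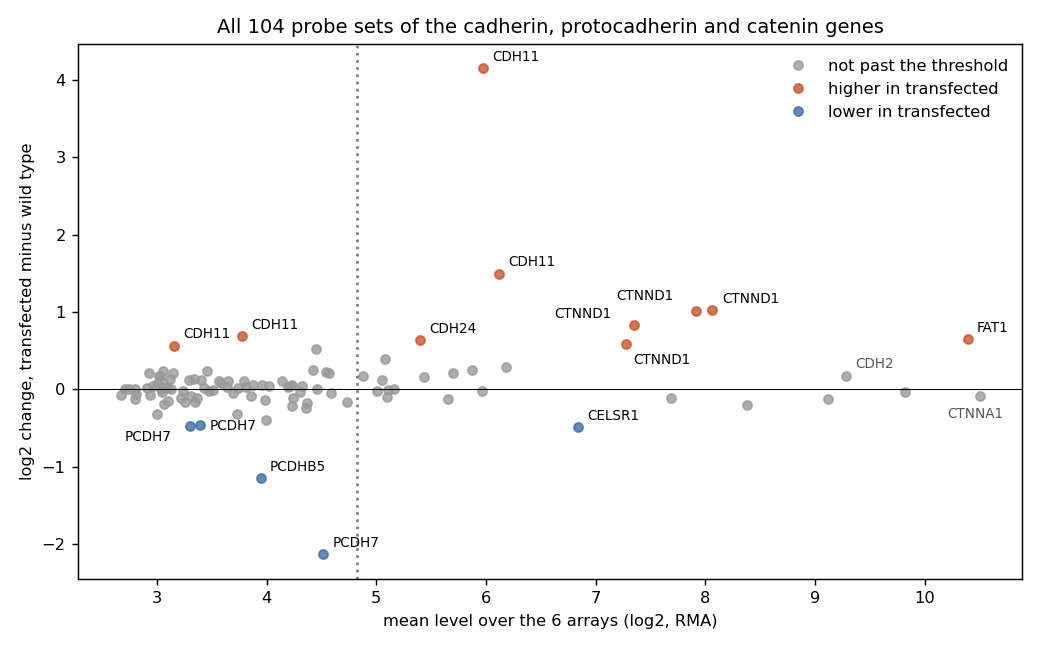
Log2 change (transfected minus wild type) against the mean level over the 6 arrays, for the 104 probe sets of the 45 measured genes. The dotted line is the median of all values, 4.82. The 10 orange points were higher and the 5 blue points lower at adjusted p under 0.05. The 2 highest points are both CDH11, at 4.15 and 1.5.

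Among the type I cadherins, no gene passed the test: 4 genes were measured on 7 probe sets, and all changes lay between -0.11 and 0.18. For E-cadherin the brighter probe set read 3.43, 3.40 and 3.43 on the wild type arrays and 3.36, 3.45 and 3.50 on the transfected arrays. The groups overlapped, both were dim, and the change was 0.02 (95% interval -0.16 to 0.19, adjusted p = 0.923, limma). The other E-cadherin probe set, also dim, read 0.12 (adjusted p = 0.438). P-cadherin (CDH3), which marks myoepithelial cells in the breast, was dim as well. It read 3.78, 3.87 and 3.75 in wild type and 3.98, 3.68 and 3.82 in transfected cells, with a change of 0.03 (95% interval -0.20 to 0.25).

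N-cadherin was well above the median on both probe sets. The brighter one, 203440_at, read 9.10, 9.24 and 9.24 in wild type cells and 9.5, 9.36 and 9.26 in transfected cells. The groups just failed to overlap, and the change of 0.18 did not pass (SE 0.09, 95% interval -0.03 to 0.39, adjusted p = 0.245, limma). The other, 203441_s_at, went from 7.75 ± 0.06 to 7.64 ± 0.12 (SD, n = 3 each), a change of -0.11 with an interval from -0.32 to 0.10. The 2 probe sets thus read opposite signs, and their intervals leave room for a change of up to 0.39 upward or 0.32 downward on the log2 scale. CDH15, the cadherin of skeletal muscle, lay near the median at 5.15 and 5.05 and did not pass (adjusted p = 0.729).

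Cadherin-11, a type II cadherin of mesenchyme and bone-forming cells, had the largest change of any member. Its probe set 207173_x_at read 3.95, 4.10 and 3.65 in wild type cells, under the median of the arrays, and 8.20, 8.23 and 7.72 in transfected cells. All transfected arrays lay far above all wild type arrays, with a change of 4.15 (SE 0.17, 95% interval 3.76 to 4.54, adjusted p = 5.34e-06, limma, n = 3 per group). RMA compresses changes of dim signals, and this probe set can also bind related transcripts. The fold of 17.8 may therefore be too small or too large, which was not tested. The probe set 207172_s_at, which has the highest mean of the 4 over all arrays, read 5.52, 5.5 and 5.09 in wild type and 7.31, 6.97 and 6.32 in transfected cells. Its groups did not overlap either, but the change was smaller, at 1.5 (SE 0.24, 95% interval 0.93 to 2.06, adjusted p = 0.00304).

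Both remaining CDH11 probe sets were dim and rose by less. The probe set 236179_at went from 2.87 ± 0.09 to 3.44 ± 0.15 (SD, n = 3 each; log2 change 0.57, adjusted p = 0.00467, limma). On 239286_at the change was 0.69, from values of 3.36, 3.45 and 3.49 to 4.07, 4.57 and 3.72 (adjusted p = 0.0377), and this call ended when any 1 wild type array was left out (adjusted p = 0.0985 to 0.114). Transfected replicate 3 was the lowest transfected array on all 4 probe sets. Probe sets with names ending in _x_at or _s_at can also bind related transcripts. Both larger changes of CDH11 come from such probe sets, and the 2 smaller ones do not.

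**Figure D2:**
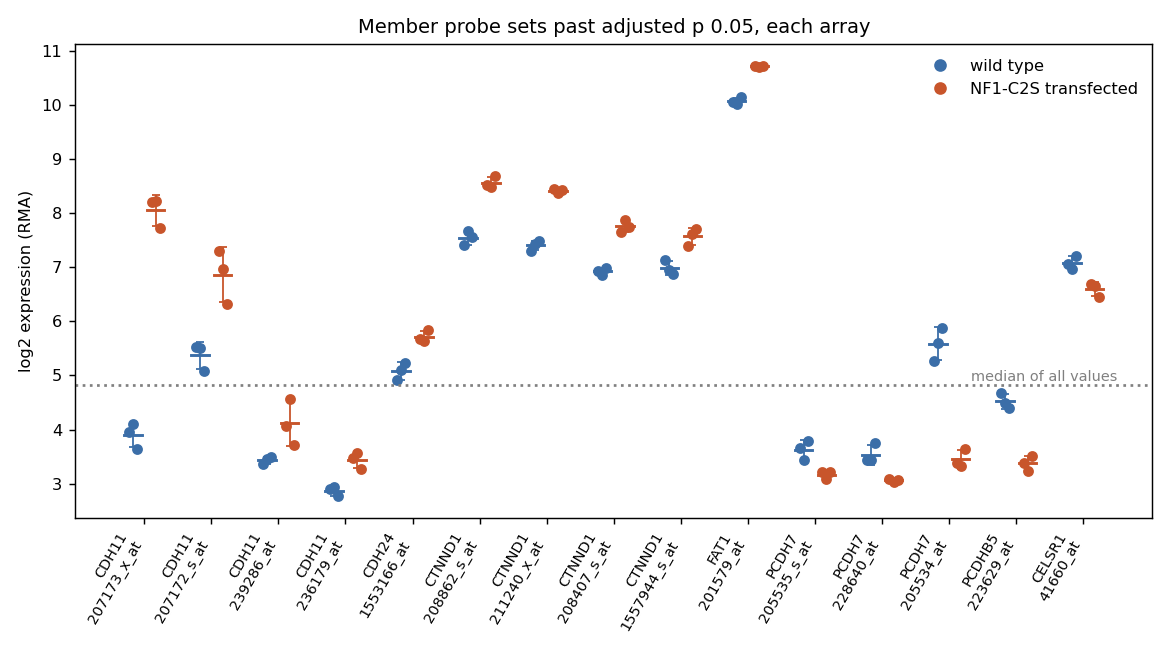
Log2 expression on each array for the 15 member probe sets past adjusted p 0.05. Points are the arrays in order of replicate number, bars are group means with their SD (n = 3 per group, wild type blue, transfected orange), and the dotted line is the median of all values. The groups do not overlap on any of the 15, and the gap is widest for CDH11 on 207173_x_at.

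The other type II cadherins were mostly dim. Of the 11 genes of this kind, 7 had dim probe sets alone, and these were CDH5 (the cadherin of endothelium), CDH8, CDH10, CDH12, CDH18, CDH19 and CDH20. None of their probe sets passed. CDH6, known from kidney, and CDH22 had a probe set above the median without a call (changes of -0.02 on the brightest of each). CDH24 rose on 1553166_at from 4.91, 5.11 and 5.23 to 5.68, 5.64 and 5.84. Its groups did not overlap there (log2 change 0.64, SE 0.11, adjusted p = 0.00347, limma). Its brighter probe set, 230157_at, read 0.25 and did not pass (adjusted p = 0.0992).

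The kidney cadherin CDH16, the intestinal CDH17 and CDH23, a tip-link protein of hair cells, did not pass on any of their 6 probe sets, with changes from -0.17 to 0.06. CDH16 was the least even of the 3. Its transfected arrays read 4.94, 3.94 and 3.96, and without replicate 1 of that group it was called lower (log2 change -0.50, adjusted p = 0.0192, limma).

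P120-catenin binds the cadherin tails. The 4 probe sets of p120-catenin (CTNND1) each also name TMX2-CTNND1, a read-through transcript that joins CTNND1 to its neighbour TMX2, so the 2 transcripts cannot be told apart here. All 4 have names ending in _x_at or _s_at, so they can also bind related transcripts. On 208862_s_at the values were 7.41, 7.67 and 7.56 in wild type and 8.52, 8.49 and 8.69 in transfected cells. The groups did not overlap, and the change was 1.02 (SE 0.10, 95% interval 0.79 to 1.25, adjusted p = 0.000235, limma). The values of 211240_x_at were 7.31, 7.43 and 7.48 against 8.45, 8.37 and 8.43, a change of 1.01 (SE 0.08, adjusted p = 9.22e-05). Both remaining probe sets, 208407_s_at and 1557944_s_at, rose by 0.83 and 0.58 (adjusted p = 0.000333 and 0.00642), again with no overlap between groups. The probe set of TMX2 alone went the other way, from 11.84 ± 0.06 to 11.43 ± 0.02 (log2 change -0.41, adjusted p = 0.00498).

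Alpha-catenin (CTNNA1), the actin link, was read by 5 probe sets, all above the median in both groups, and none passed. The brightest read 10.45, 10.47 and 10.71 in wild type and 10.53, 10.43 and 10.41 in transfected cells. The groups overlapped, and the change of -0.09 had a 95% interval from -0.31 to 0.13 (adjusted p = 0.642, limma). Over the 5 probe sets the changes ran from -0.21 to 0.13. CTNNA2 and CTNNA3, the alpha-catenins of neurons and of heart and testis, were dim on all 5 of their probe sets and did not pass. Delta-catenin (CTNND2), a relative of p120 best known from neurons, was dim too. Its brightest probe set read 4.17, 4.36 and 4.02 in wild type and 4.24, 5.02 and 4.87 in transfected cells, a change of 0.53 that did not pass (adjusted p = 0.109) and was called when transfected replicate 1 was left out (0.76, adjusted p = 0.00226).

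**Figure D3:**
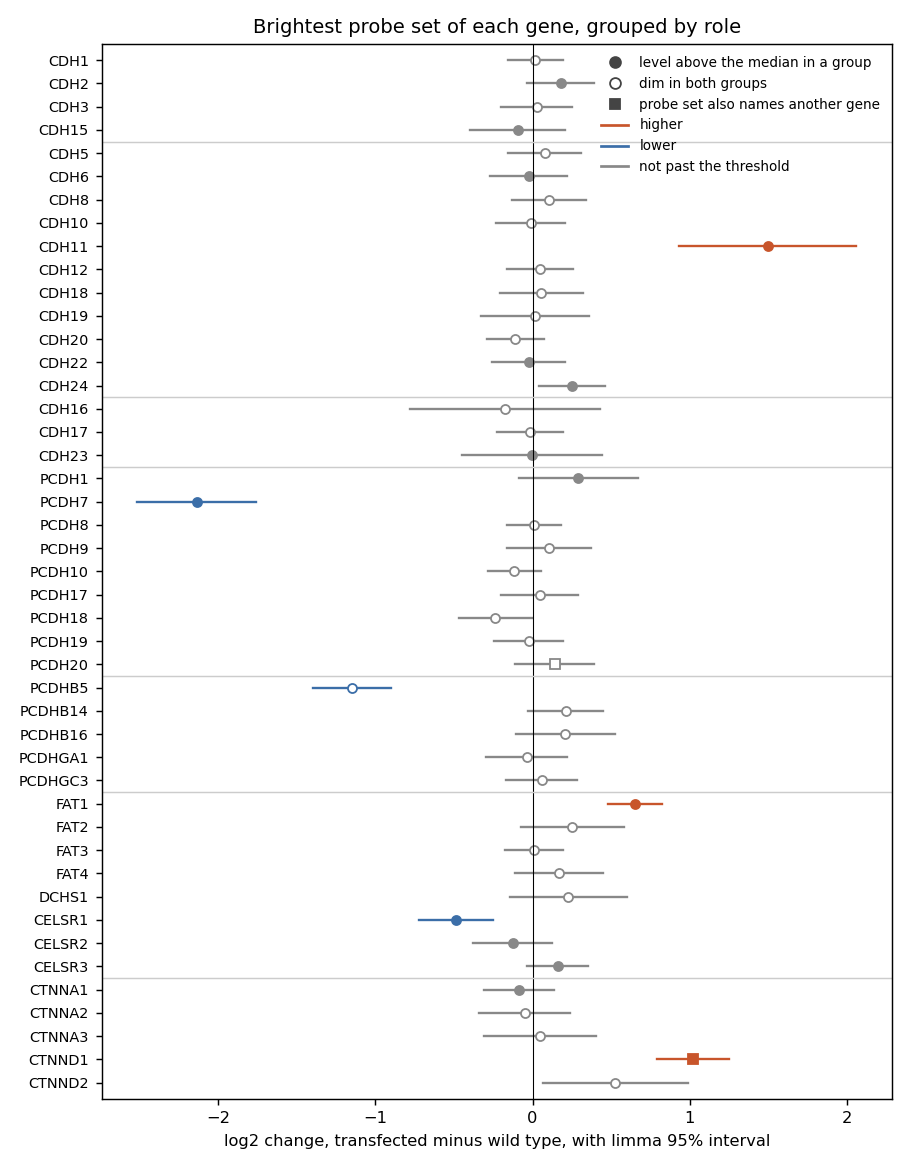
Log2 change with limma's 95% interval for the brightest probe set of each of the 45 measured genes, grouped by role. Squares mark CTNND1 and PCDH20, which share their probe sets with another gene, and open symbols are dim in both groups. The intervals of CDH11, FAT1 and CTNND1 lie above 0 and those of PCDH7, PCDHB5 and CELSR1 below it, all past the threshold. Those of CTNND2 (0.07 to 0.99), CDH24 (0.04 to 0.46) and PCDH18 (-0.47 to -0.004) also leave out 0, but their adjusted p did not pass.

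PCDH7, a protocadherin known from brain and from tumour spread, had the largest fall. On its brightest probe set, 205534_at, the wild type arrays read 5.27, 5.6 and 5.88 and the transfected arrays 3.38, 3.32 and 3.65. The groups did not overlap, and the transfected values lay under the median (log2 change -2.13, SE 0.16, 95% interval -2.51 to -1.76, adjusted p = 7.65e-05, limma). The other 4 PCDH7 probe sets were dim in both groups. Of these, 228640_at fell by 0.48 (adjusted p = 0.0126) and 205535_s_at fell by 0.46 (adjusted p = 0.0168), a call that ended without wild type replicate 1 or 3 or transfected replicate 2 (0.0607, 0.0589 and 0.0643). On 210941_at the change was -0.32 (adjusted p = 0.0862), and on 210273_at both group means were 4.46.

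None of the other 8 protocadherins outside the gene clusters passed. PCDH1, found in airway epithelium, was the only one above the median. It read 5.97, 6.15 and 5.99 in wild type and 6.72, 6.14 and 6.12 in transfected cells, so that its change of 0.29 (adjusted p = 0.293) came from replicate 1. PCDH8, PCDH9, PCDH10, PCDH17, PCDH18, PCDH19 and PCDH20 were dim on every probe set. Their probe sets had changes from -0.24 to 0.23.

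The clustered protocadherins lie side by side on chromosome 5, and each cell is known to transcribe a few of them from their own promoters. PCDHB5 fell on its single probe set from 4.67, 4.5 and 4.40 to 3.38, 3.23 and 3.51. The groups did not overlap, although all values were under the median (log2 change -1.15, SE 0.11, 95% interval -1.40 to -0.90, adjusted p = 0.000193, limma). PCDHB14, PCDHB16, PCDHGA1 and PCDHGC3 were dim and did not pass, with changes from -0.11 to 0.21 over 8 probe sets, of which 3 of the 5 that name PCDHGC3 also name other gamma protocadherins. Among the other beta protocadherins of the array, which are no members of the list, PCDHB2 rose from 4.84 ± 0.31 to 6.34 ± 0.38 (log2 change 1.5, adjusted p = 0.00161). Of the 10 measured genes on each side of PCDHB5 in chromosome order, 2 rose past the threshold (PCDHB2 and PCDHAC2) and none of these 20 fell, with a median change of 0.09.

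Promoter sequences from RefSeq (GRCh38.p14) are shown for 3 of the genes with a called brightest probe set, PCDH7, PCDHB5 and FAT1, beside N-cadherin, which did not pass, because the plasmid encodes a DNA-binding factor. Each is the 250 bases before the gene's start, on the gene's strand: chr4:30720119-30720368 (+) for PCDH7, chr5:141134956-141135205 (+) for PCDHB5, chr4:186726697-186726946 (-) for FAT1 and chr18:28177131-28177380 (-) for CDH2. Capitals mark TTGGC, the core of the site bound by the nuclear factor I family, and CACCTG, the E-box bound by SNAI and ZEB repressors, on either strand.
PCDH7: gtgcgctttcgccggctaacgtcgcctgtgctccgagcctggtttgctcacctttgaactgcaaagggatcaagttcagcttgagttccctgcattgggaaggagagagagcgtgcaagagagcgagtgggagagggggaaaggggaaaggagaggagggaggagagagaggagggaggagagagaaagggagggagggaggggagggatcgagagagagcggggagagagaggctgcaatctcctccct
PCDHB5: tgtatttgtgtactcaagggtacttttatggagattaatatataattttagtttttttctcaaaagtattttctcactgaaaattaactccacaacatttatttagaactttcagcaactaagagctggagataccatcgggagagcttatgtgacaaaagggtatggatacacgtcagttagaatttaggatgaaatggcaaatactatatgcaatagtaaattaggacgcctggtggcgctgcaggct
FAT1: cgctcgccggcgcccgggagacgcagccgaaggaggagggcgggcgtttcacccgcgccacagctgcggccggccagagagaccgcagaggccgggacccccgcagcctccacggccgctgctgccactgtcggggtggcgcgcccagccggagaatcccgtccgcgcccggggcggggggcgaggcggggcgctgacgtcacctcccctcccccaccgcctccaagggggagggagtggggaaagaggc
CDH2: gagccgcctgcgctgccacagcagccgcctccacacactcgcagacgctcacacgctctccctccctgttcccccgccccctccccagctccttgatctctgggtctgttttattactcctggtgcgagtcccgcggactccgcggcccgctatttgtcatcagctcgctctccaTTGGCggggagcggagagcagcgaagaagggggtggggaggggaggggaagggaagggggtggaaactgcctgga
The windows of PCDH7, PCDHB5 and FAT1 hold neither motif, and that of CDH2 holds 1 TTGGC. Over the 29 members with a promoter in the RefSeq table, TTGGC or its complement was found in 12 (41.4%), against 41.3% of all 27305 promoters of the same length. CACCTG or its complement was found in 2 of the 29 (6.90%), against 17.5% of all. The full nuclear factor I palindrome, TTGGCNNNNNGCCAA, was found in none of the 29 and in 0.0330% of all promoters, and it contains that core. The windows of PCDH7, FAT1 and CDH2 are 59.6%, 78.0% and 66.0% G or C, and that of PCDHB5 is 35.2%. CDH11, CTNND1, CELSR1 and CDH24 had no entry in the table.

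The Fat, Dachsous and CELSR proteins are giant cadherins of planar polarity. FAT1 rose from 10.05, 10.02 and 10.14 to 10.73, 10.71 and 10.72, with transfected arrays that lay within 0.02 of each other and well above all wild type arrays (log2 change 0.65, SE 0.07, 95% interval 0.48 to 0.82, adjusted p = 0.000535, limma). CELSR1, a core polarity receptor, fell on its brightest probe set from 7.07, 6.97 and 7.21 to 6.69, 6.65 and 6.45. These groups did not overlap (log2 change -0.49, SE 0.10, adjusted p = 0.00996). Both dim CELSR1 probe sets read -0.39 and -0.32 and did not pass (adjusted p = 0.176 and 0.072).

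CELSR2 read -0.13 and 0.01 on its 2 probe sets, with overlapping groups. CELSR3 read 0.16 on the brighter of its pair and 0.39 on the other (adjusted p = 0.256 and 0.0553), without overlap on either. With the replicate number as a block, the second of these was called (adjusted p = 0.0174, limma), as it was without transfected replicate 1 (0.45, adjusted p = 0.0372). Quantile normalization, a filter on dim probe sets and array weights called it too (adjusted p = 0.0486, 0.034 and 0.0394, limma). FAT2, FAT3, FAT4 and DCHS1, a ligand of FAT4, were dim on all 7 of their probe sets, and none passed.

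**Figure D4:**
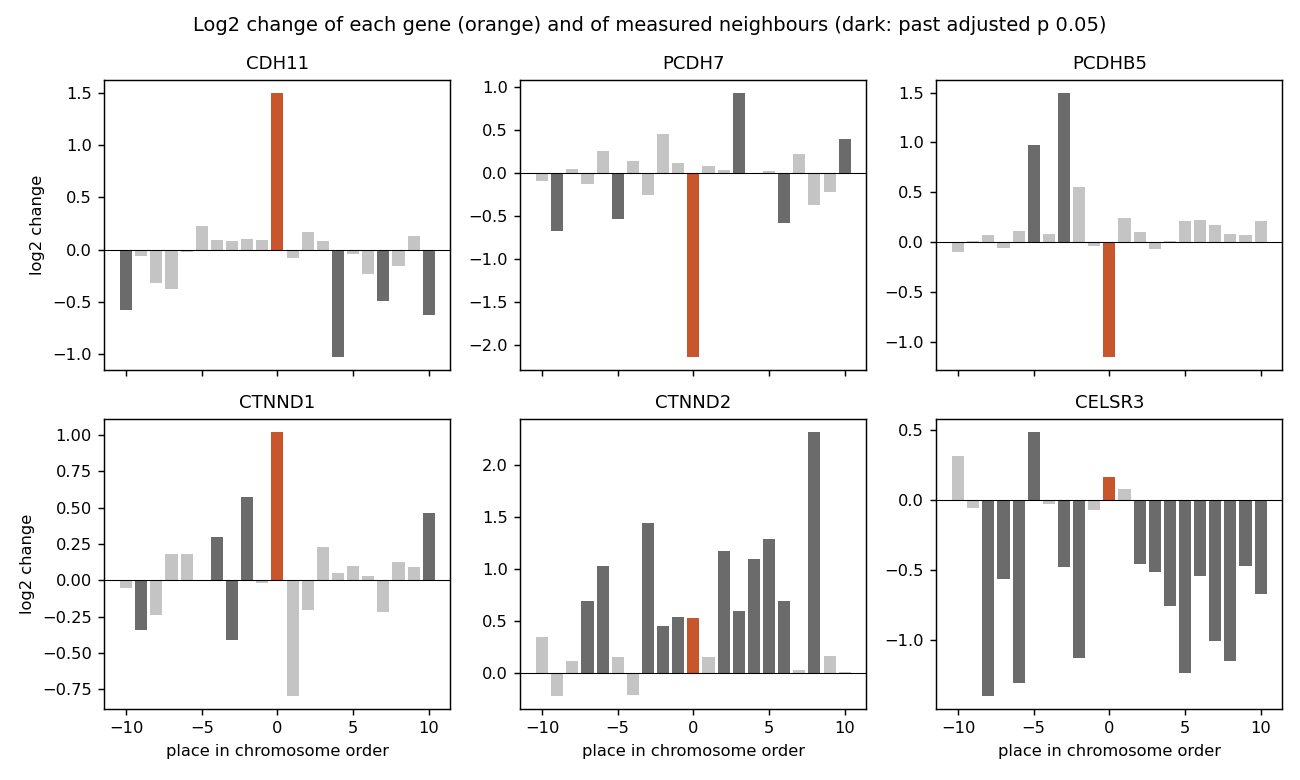
Log2 change of 6 members (orange) and of the 10 nearest measured genes on each side, by place in chromosome order. Dark bars are neighbours past adjusted p 0.05 and light bars the rest, and each panel has its own vertical scale. CDH11 (1.5) and PCDH7 (-2.13) changed by more than any of their 20 neighbours shown, PCDHB5 (-1.15) fell beside a rising PCDHB2, CTNND2 (0.53) lies among rising genes and CELSR3 (0.16) among falling ones.

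Neighbouring genes were set beside the members, since runs of genes can move together. Around CDH11 the median change of the 20 nearest measured genes was -0.05, with 4 lower and none higher, and the adjacent cadherins CDH8 and CDH5 read 0.10 and 0.08. For PCDH7 that median was 0.02, for PCDHB5 0.09, for CTNND1 0.04 and for CELSR1 0.01. The 17 neighbours of FAT1, which lies near a chromosome end, had a median of -0.04. CTNND2 lay in a run with a median of 0.49, in which 11 of 20 genes rose and none fell. CELSR3 lay in a run with a median of -0.53, in which 14 of 20 fell and 1 rose, and CDH17 in another with -0.53 and 10 of 20 lower. With the neighbours' median subtracted, CELSR3 read 0.69 (adjusted p = 0.000519, limma), but its own change of 0.16 did not pass (adjusted p = 0.256). The median is subtracted as a fixed value without error, so most of the 0.69 is the neighbours' shift and no rise of CELSR3. CDH24 read 0.32 on that scale (adjusted p = 0.0256), and its own 0.25 did not pass. CDH17 read 0.51 on that scale, but it was dim in both groups (3.24 and 3.23) with a change of its own of -0.02, so that value is the neighbours' shift and no rise of CDH17. Under the same subtraction the calls and directions of CDH11, PCDH7, PCDHB5, FAT1 and CELSR1 did not change. What these runs stem from was not tested.

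Other proteins of the adherens junction and its actin anchor were split in direction, with 6 of 29 measured genes higher, 7 lower and 16 not past the threshold (44.8% called, against 29.0% of all genes), with a median change of 0.06. Only 1 of the 29 was dim, and of all probe sets above the median in a group 39.0% were called. That share counts probe sets, while this list and those below count genes, each by its brightest own probe set. LIMA1, also known as EPLIN, which ties alpha-catenin to actin, went from 9.81 ± 0.27 to 6.81 ± 0.27, a log2 change of -3 (SE 0.17, adjusted p = 2.47e-05, limma). LMO7, an afadin-binding protein, fell by 1.10, and vezatin (VEZT), a membrane partner of the complex, fell by 0.86. Plakoglobin (JUP), vinculin (VCL) and afadin (AFDN) read 0.06, 0.10 and -0.08, and none passed.

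Of 33 further genes of the cadherin superfamily, 2 rose, 3 fell and 28 did not pass (15.2% called, against 29.0% of all genes), with a median of 0.07. Many of them were dim (22 of 33). Beside PCDHB2, the desmosomal cadherin DSC3 fell from 5.94 ± 0.20 to 3.98 ± 0.19 (log2 change -1.96, adjusted p = 5.02e-05, limma), and DSC2 fell by 1.06. DSG2, a partner of the desmocollins in desmosomes, went the other way with a rise of 0.65.

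In the list of planar polarity and the Fat-Dachsous pathway, 5 of 20 rose, 7 fell and 8 did not pass (12 of 20 called, against 29.0% of all genes), with a median of -0.18. Only 2 of the 20 were dim, and the share called among all probe sets above the median in a group was 39.0%. VANGL2, a core polarity protein, rose from 4.52 ± 0.30 to 6.47 ± 0.21 (log2 change 1.95, adjusted p = 0.000138, limma). ANKRD6, known as Diversin, rose by 1.05, and the core protein PRICKLE2 fell by 0.94. FJX1, the relative of the kinase that modifies Fat and Dachsous repeats, rose by 0.61.

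Among 28 genes of cadherin processing, modification and turnover, 10 rose, 5 fell and 13 did not pass (53.6% called, against 29.0% of all genes, median 0.16). Only 3 of the 28 were dim, and the share called among all probe sets above the median in a group was 39.0%. ADAM10, the main protease that sheds cadherin ectodomains, rose from 8.62 ± 0.13 to 10.18 ± 0.08 (log2 change 1.56, SE 0.09, adjusted p = 2.96e-05, limma). TMTC4, of the family that adds mannose to cadherin repeats, rose by 1.22, and the kinase SRC, which phosphorylates p120-catenin, by 1.10. Another 15 genes were listed for repression of E-cadherin, directly or through other factors. Of these, 7 fell, 1 rose and 7 did not pass (53.3% called, against 29.0% of all genes, median -0.40). Only 1 of the 15 was dim, and of all probe sets above the median in a group 39.0% were called. FOXC2, TWIST2 and E2F5 had the largest falls, by 1.48, 1.37 and 1.14, and EZH2 rose by 0.51. TWIST1, TCF3 and ZEB1 changed by -0.81, -0.51 and -0.41 (adjusted p = 0.000695, 0.00171 and 0.0161, limma). ZEB2 read 0.58 with no overlap between groups, but it did not pass (adjusted p = 0.071, limma). SNAI1 and SNAI2 read 0.12 and 0.10 and did not pass, beside an E-cadherin level that was dim in both groups.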

How the data were processed

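Expression was measured in 3 wild type and 3 NF1-C2S transfected samples, grouped by their titles. The authors deposited log2 values for 54675 probe sets, made with RMA per the submitters' processing notes; the sources used here give neither its version nor which arrays were normalized together. Values ran from 2.35 to 14.62, with array medians from 4.8 to 4.85. Arrays have no read depth, and their number limits precision. After 62 control probe sets were left out, 54613 were fitted with limma 3.58.1 in R 4.3.3 (lmFit and eBayes, two-sided, Benjamini-Hochberg adjustment over all 54613, checked on simulated data). Genes were named through the platform annotation, updated by gene identifier: 41091 probe sets had 1 gene, 1801 several and 11721 none. A gene was read at its brightest own probe set, giving 19775 genes. GRCh38.p14 tables gave names, gene order and promoters.

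The members and lists were chosen with earlier results of these data known. Each array's value is given for members with a called probe set that changed by at least 1 on the log2 scale, and for CDH1, CDH2, CDH3, CDH11, CTNNA1 and CTNND1; values of other members and genes beyond the 3 largest called changes of a list were chosen after they were seen. Alternatives were other normalizations, a filter on dim probe sets, array weights, another variance prior, each array left out, a replicate block, other probe set rules and the neighbours' shift. Deviations from group means correlated by 0.398, 0.238 and 0.14 between arrays of replicate numbers 1, 2 and 3, and arrays of different numbers reached 0.142. The labels state no pairing. The main fit therefore used no replicate block, and its p-values and intervals are unpaired. The block was run as an alternative only.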

Additional observations from a re-analysis of the deposited data

How the results depend on the processing

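Calls of CDH11 on 207173_x_at, 207172_s_at and 236179_at, and of CTNND1, PCDH7 on 205534_at, PCDHB5, FAT1 and CELSR1, kept direction and threshold in each alternative run for them, and no called probe set of a member changed sign. With the replicate block, 11 member probe sets were higher and 5 lower, in place of 10 and 5, the addition being CELSR3 on 205165_at; the block changed no other call of a member. With dim probe sets left out, 2 in place of 5 member probe sets were lower, since only 29 were tested. Genes called higher at their brightest own probe set numbered 2, but 4 with array weights, 4 with the mean of a gene's probe sets and 5 after the neighbours' shift was subtracted. Those 5 include CELSR3 and CDH24, whose own changes did not pass, and CDH17, which is dim and read -0.02 before the subtraction. Leaving out 1 array at a time gave 2 to 4 such genes, with the 4 reached without transfected replicate 1, where CDH24 and CTNND2 joined CDH11 and FAT1. With the mean of its probe sets CDH11 read 1.73 and PCDH7 -0.68, and with _x_at and _s_at probe sets dropped CDH11 read 0.69, each past the threshold. CTNND1, which is read by shared _x_at and _s_at probe sets alone, was in none of the runs by gene. These include the mean of a gene's probe sets, the dropped _x_at and _s_at probe sets and the neighbours' shift. Of the 104 member probe sets 75 were dim, where RMA compresses changes, so small changes there can be missed; PCDHB5, and CDH11 and PCDH7 on dim probe sets, were called all the same.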
